A study of Rattus norvegicus with 2 samples.

Results

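Genes of the blood and lymphatic endothelium were examined in the cervical lymph nodes of rats, on 1 array from the control group (C) and 1 array from a group under restraint stress (RS). A list of 34 genes was searched for by gene name among the probes other than controls, and 31 of them were found; Stab1, Mmrn1 and Mmrn2 were not found under these names and were not analysed here. A gene was represented by its brightest probe, and 26 of the 31 had a signal well above background on an array, out of 21096 such genes among 36174 gene names on the array. Of these 26 genes, 25 were above background on both arrays and 1, Flt1, on the RS array only, while Cd34, Aplnr, Esm1, Edn1 and Sox17 were above background on neither. Because there was 1 array per group, no difference has a replicate check and no p-value was computed.

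Both arrays carried RNA of male Sprague-Dawley rats, 10 to 12 weeks old. In the text, C and RS also stand for the array of the group. The C animals were not restrained, and the RS array was taken to be that of the RS30 group, because the study's microarray results concern this group and the sample label gives no time. The study's methods describe rats tied in a supine position to a wooden board, then halothane anesthesia and an overdose of pentobarbital in all groups, and whether the RNA of several rats was pooled for an array is not stated.

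Blood vessels and lymphatic vessels are lined by endothelial cells, which hold together through junction proteins such as VE-cadherin and respond to vascular endothelial growth factors and angiopoietins through receptor tyrosine kinases. In a lymph node, blood endothelium includes the high endothelial venules, through which lymphocytes enter, and lymphatic endothelium lines the sinuses through which lymph flows. Transcription factors of the ETS and SoxF families set the identity of both lineages, and Prox1 sets that of the lymphatic lineage.

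Spot intensities, given in arbitrary units after background subtraction, were converted to log2 and the 75th percentile of each array, which was 189 in C and 176 in RS, was subtracted. A log2 difference is RS minus C, and the error printed after it as ± is that of the spots alone, as estimated by the scanner software, which does not include differences between rats. For probes with 10 spots, the spots of 1 array differed by a median SD, in log2 intensity, of 0.23 (C) and 0.26 (RS) at intensities from 8 to 32, and 0.054 and 0.058 at 512 or more. Of 12 lymphocyte markers found, including Ptprc and Cd3e, 12 were above background on both arrays, with a median log2 difference of -0.095 and Ccr7 (-0.53) and Cd8a (-0.52) farthest from 0, so that either array carried the markers of a lymph node.

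Of the 26 measured endothelial genes, 17 (65.4%) lay within 1.5-fold in either direction, compared with 83.6% of all 21096 screened genes. The median log2 difference over the 26 was 0.15, compared with 0.016 over all screened genes. The difference was above 0 for 16 of the 26 (61.5%), compared with 52.1% of all screened genes. Higher by 1.5-fold or more were 7 genes (26.9%), compared with 7.97% of all genes, and lower by 1.5-fold or more were 2 genes (7.69%), compared with 8.46%. The count of 7 was 6 when the 75th percentile was taken over probes above background on both arrays, and 5 without normalization. At 2-fold, 4 genes were higher (15.4%), compared with 3.46% of all genes, and 1 was lower (3.85%), compared with 4.28%. The higher genes were Sox7, Emcn, Pdpn and Flt1, and the lower gene was Sox18. Flt1 passed the background filter through the RS array only. With genes above background on both arrays only, 3 of 25 were 2-fold or more higher and 1 was lower. The same counts over all 19214 such genes were 493 and 601. With 26 genes, each gene makes up several percent of such a share, and the shares were not tested.

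**Figure D1:**
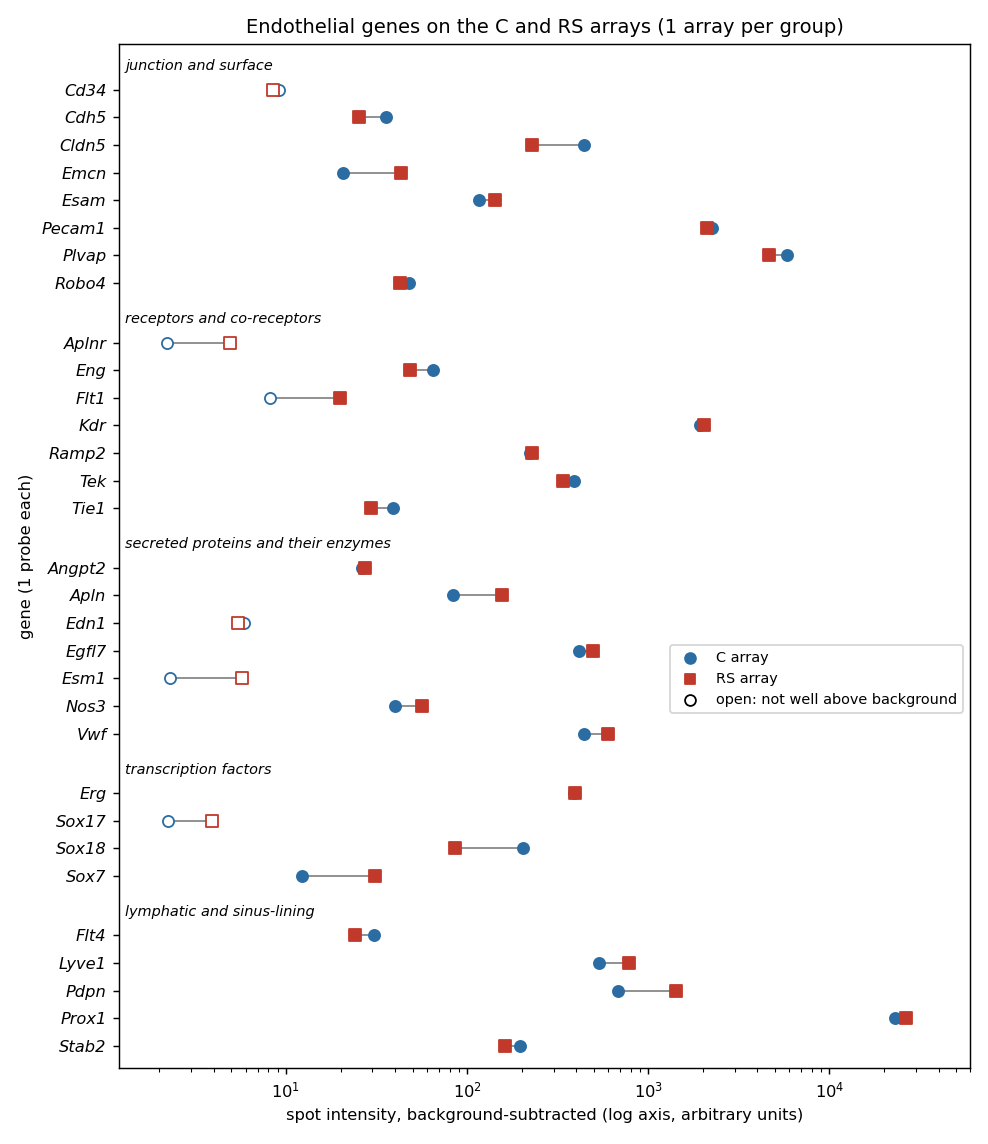
Spot intensity on a log axis (arbitrary units) of the 31 endothelial genes found, 1 probe each, on the C array (circles) and the RS array (squares), grouped by role, with open symbols where the probe was not well above background. The symbols nearly coincide for genes such as Pecam1, Kdr and Erg and stand apart for Sox7, Emcn, Pdpn and Sox18.

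The spread of all genes depended on brightness, and the endothelial genes were read against it. Among the dimmest 25% of screened genes, log2 differences ran, from the 5th to the 95th percentile, from -1.32 to 1.14, and 13.8% of genes were past 2-fold. In the brightest quartile this range was from -0.41 to 0.46, and 3.77% were past 2-fold. Of the 6 endothelial genes in the dimmest quartile, 3 (Flt1, Emcn and Sox7) lay above the range of that quartile. Flt1 entered this count through the RS array only, and its value is a lower bound. Flt1 and Emcn, both at 1.17, lay only just above the limit of 1.14, and Sox7 was at 1.44. Apln lay above the range of the second quartile (-0.90 to 0.86) and Sox18 below it. Lyve1 lay above the range of the third quartile (-0.61 to 0.63) and Cldn5 below it. Pdpn lay above the range of the brightest quartile. The other 18 genes lay within the range of their quartile.

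**Figure D2:**
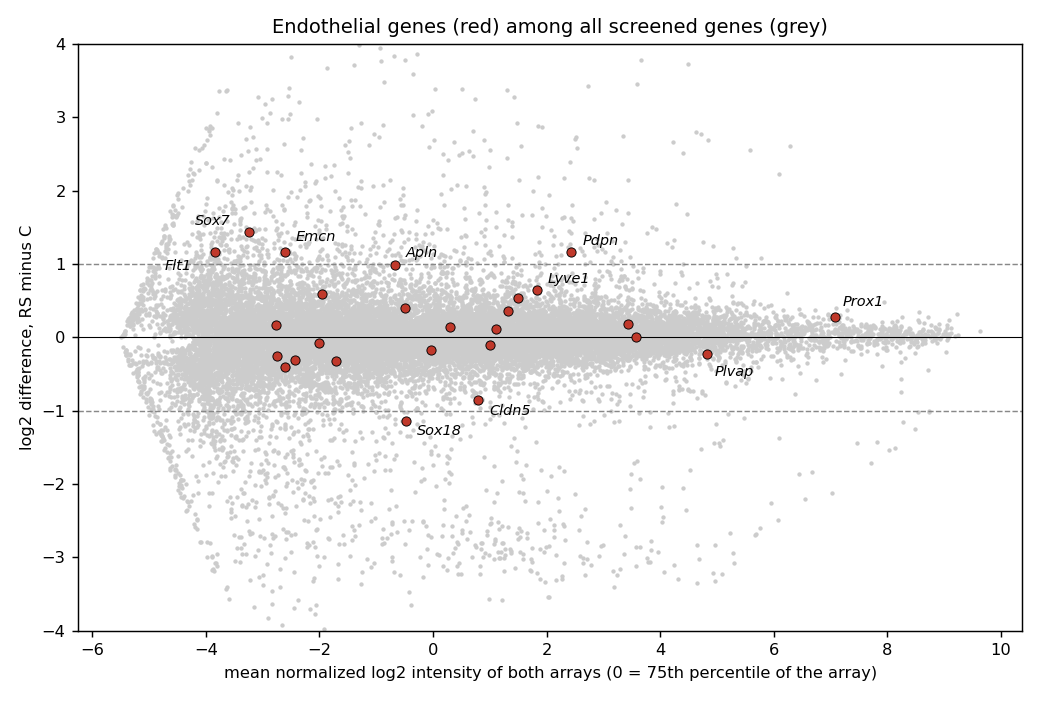
Log2 difference (RS minus C) against the mean normalized log2 intensity of both arrays for the 21096 screened genes (grey) and the 26 endothelial genes (red), with dashed lines at 2-fold. The endothelial genes scatter around 0 at all intensities; 21 other genes lie outside the axis limits of -4 and 4.

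The transcription factors of the list held both the largest increase and the largest decrease. Sox7, Sox17 and Sox18 form the SoxF group, whose members act in part redundantly in vessel formation. The probe for Sox7 had an intensity of 12.2 in C and 30.8 in RS. The log2 difference was 1.44 ± 0.36, or 2.71-fold higher on the RS array. Sox18, which is needed for the specification of lymphatic endothelium and is mutated in a human lymphedema syndrome, had an intensity of 202 in C and 85.8 in RS. Its log2 difference was -1.14 ± 0.21, which is past 2-fold. The SoxF pair thus differed in opposite directions, by more than 1.96 times the spot error each. The third member, Sox17, which is known from arterial endothelium, was not well above background, with intensities of 2.24 and 3.90. Erg, an ETS factor that maintains endothelial junctions, had intensities of 390 and 396 and a log2 difference of 0.12 ± 0.20. The second probe for Erg went from 41.8 to 28.5, a log2 difference of -0.46 ± 0.23, so the direction of Erg depends on the probe. By the genome positions in the files (rat build rn4 in their header), the probe for Sox7 lies on chromosome 15 from 43214572 to 43214631 (forward strand) and that for Sox18 on chromosome 3 from 170820677 to 170820736 (reverse strand).

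Junction and surface genes had a median log2 difference of -0.070 over 7 measured genes, with 3 above and 4 below 0. Pecam1, which encodes the adhesion molecule CD31 of endothelial junctions, had an intensity of 2242 in C and 2101 in RS, and a log2 difference of 0.0048 ± 0.20, which was below 0 with the other scalings and normexp. Cdh5, which encodes VE-cadherin, went from 35.8 to 25.2, with a log2 difference of -0.41 ± 0.24. Neither exceeded 1.96 times the spot error. Cldn5, which encodes the tight junction protein claudin-5, had an intensity of 441 in C and 228 in RS, a log2 difference of -0.86 ± 0.20, or 1.81-fold lower. Emcn, which encodes the sialomucin endomucin of venous and capillary endothelium, went the other way, from 20.6 to 43.2, with a log2 difference of 1.17 ± 0.26, or 2.25-fold higher. The junctional adhesion molecule gene Esam had intensities of 116 and 143 (log2 difference 0.40 ± 0.21). Plvap, which encodes the diaphragm protein of fenestrated vessels, had intensities of 5802 and 4611 (-0.23 ± 0.20), and Robo4, a guidance receptor that stabilizes vessels, 48.0 and 42.7 (-0.070 ± 0.22). Cd34, the sialomucin of vessel lumens, had intensities of 9.12 and 8.47, not well above background. Emcn and Cldn5 alone among the surface genes were thus past 1.5-fold, in opposite directions.

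Receptor genes had a median log2 difference of 0.017 over 6 measured genes, with 3 above and 3 below 0. Kdr, which encodes VEGF receptor 2, the main signaling receptor of VEGF-A, had an intensity of 1923 in C and 2037 in RS, with a log2 difference of 0.18 ± 0.20. The angiopoietin receptor gene Tek had intensities of 390 and 340 (log2 difference -0.10 ± 0.20), and Tie1, which encodes its partner, 39.1 and 29.7 (-0.30 ± 0.24). Eng, which encodes the BMP and TGF-beta co-receptor endoglin, had intensities of 64.7 and 48.5 (-0.32 ± 0.22), and Ramp2, which makes the calcitonin receptor-like receptor respond to adrenomedullin, 222 and 228 (0.14 ± 0.20). These receptor differences were all within 1.96 times the spot error. The receptor of apelin, Aplnr, was not well above background, with intensities of 2.21 and 4.94.

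Flt1, which encodes VEGF receptor 1, a decoy for VEGF-A that also exists in a soluble form, was the exception among the receptors. Its brighter probe read 8.13 in C, which did not clear the background, and 19.9 in RS, which did. Against the lowest signal of probes well above background on the C array, Flt1 was at least 2.25-fold higher on the RS array (1.17 on the log2 scale). The spot error of 0.48 belongs to the plain difference between the readings of Flt1 on the arrays, which was 1.39. The other probe for Flt1 had intensities of 4.50 and 2.08 and was above background on neither array. The files place both probes on chromosome 12, on the forward strand, with starts 78545 bases apart. Because only 1 of the probes had signal, the middle 30 bases (16 to 45 of 60, counted from the 5′ end) of each are given here, as the files list them:

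Flt1 probe above background on the RS array, chromosome 12 from 7957094 to 7957153: actcaggactactccatcactctgaacctt

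Flt1 probe above background on neither array, chromosome 12 from 8035639 to 8035698: aggaaaacactattgttcaatcctcctgtg

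Genes of secreted proteins and their enzymes were above 0 in 5 of 5 measured cases, compared with 52.1% of all screened genes. Their median log2 difference was 0.53. Apln encodes apelin, a peptide of growing and hypoxic endothelium. Its probe had an intensity of 84.0 in C and 156 in RS, and the log2 difference was 0.99 ± 0.21, or 1.99-fold higher, just under the 2-fold threshold. Its second probe went from 42.4 to 111, a log2 difference of 1.48 ± 0.22, so that both probes were higher and the mean over them (1.24) was past 2-fold. Nos3, which encodes the endothelial nitric oxide synthase, had intensities of 39.9 and 56.1 (0.59 ± 0.22, or 1.51-fold higher), but lay under 1.5-fold with the percentile over probes above background on both arrays (0.57), without normalization (0.49) and with normexp (0.28). Vwf, which encodes von Willebrand factor of endothelial and platelet storage granules, had intensities of 442 and 597 (0.53 ± 0.20), and its second probe 168 and 193 (0.30 ± 0.21). The differences of Apln, Nos3 and Vwf exceeded 1.96 times the spot error, and those of the following genes did not. Egfl7, a matrix protein of endothelial cells, had intensities of 413 and 496 (0.36 ± 0.20). Angpt2, the angiopoietin that is released from activated endothelium and antagonizes Tek, had intensities of 26.2 and 27.4 (0.16 ± 0.26). The endothelin gene Edn1, with intensities of 5.85 and 5.45, and Esm1, a proteoglycan gene of sprouting tip cells, with 2.29 and 5.70, were above background on neither array. Among platelet genes, which share Vwf, Pf4, Gp9 and Gp1bb were measured, with log2 differences of 0.94, -0.60 and 0.43, and Ppbp, Gp1ba, Gp6 and Treml1 were above background on neither array. The part of platelets in the Vwf signal was not tested.

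Lymphatic and sinus-lining genes had a median log2 difference of 0.28 over 5 measured genes, with 3 above and 2 below 0. Pdpn, which encodes podoplanin, a surface protein of lymphatic endothelium and of the fibroblastic reticular cells of lymph nodes, had an intensity of 684 in C and 1427 in RS, each the average of 2 spots. The log2 difference was 1.16 ± 0.14, or 2.23-fold higher. Its second probe went from 21.5 to 29.3 (0.55 ± 0.28), also higher, and the mean over the probes was 0.85, which is under 2-fold. Lyve1, the hyaluronan receptor of lymphatic endothelium and some macrophages, had intensities of 534 and 782, with a log2 difference of 0.65 ± 0.20, or 1.57-fold higher, which was under 1.5-fold without normalization (0.55). Prox1, the lymphatic transcription factor, was printed in 10 spots, of which 10 were used in C and 9 in RS, with average intensities of 23122 and 26283 and SDs of the log2 intensity of 0.044 and 0.031. Its log2 difference of 0.28 was larger than the spot error of 0.066. A second Prox1 probe in 1 spot had intensities of 244 and 346 and a log2 difference of 0.60 ± 0.20. Both Prox1 probes were higher on the RS array. Flt4, which encodes VEGF receptor 3, the receptor of VEGF-C on lymphatic endothelium, had intensities of 30.7 and 24.1 (-0.25 ± 0.25), and Stab2, a scavenger receptor of sinusoidal endothelium, 197 and 162 (-0.18 ± 0.21), so that the lymphatic genes did not share 1 direction.

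**Figure D3:**
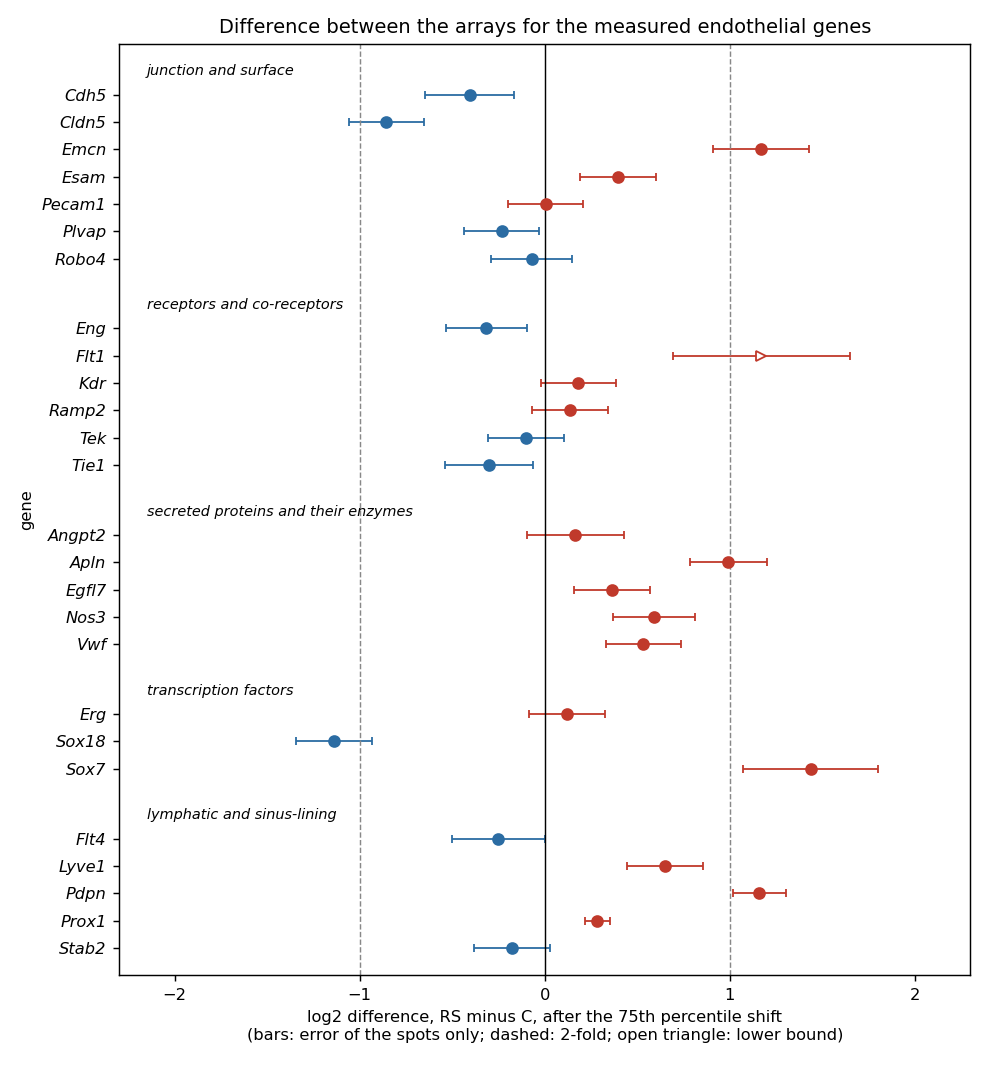
Log2 difference (RS minus C) of the 26 measured endothelial genes by role, with bars for the error of the spots and dashed lines at 2-fold; the open triangle marks the lower bound of Flt1. Genes of secreted proteins lie to the right of 0, with the bar of Angpt2 crossing it, and Sox7 and Sox18 lie past 2-fold on opposite sides.

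Of 8 endothelial genes with several probes (Apln, Erg, Flt1, Flt4, Pdpn, Prox1, Stab2 and Vwf), 6 had all probes on the same side of 0. The exceptions were Erg and Flt1, and in the case of Flt1 the disagreeing probe was not above background. Among the agreeing genes, the second probe for Flt4 was also above background on neither array (intensities of 9.25 and 5.71, -0.60 ± 0.59). The share of all genes whose probes agreed was not computed. No endothelial gene was represented by a probe in which A and G alternate over 6 or more bases, and their longest run was 4. When probes with these runs were left out, 498 of 20252 genes were lower by 2-fold or more, instead of 903 of 21096. Higher by 2-fold or more were 716, instead of 730. The share of 4.28% of all genes lower by 2-fold or more thus includes probes of a kind that represents no endothelial gene.

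With limma's normexp background correction, which adds an offset of 50 to the signals and reduces differences of dim probes by construction, the log2 differences were 0.38 for Sox7, 0.41 for Emcn and 0.29 for Flt1, and Sox18 was at -0.80. Pdpn remained past 2-fold, at 1.09. The direction of each was kept, but under this correction Pdpn was the only endothelial gene past 2-fold.

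The promoters of the endothelial genes with the largest differences are shown so that genes that were higher (Flt1, Emcn, Pdpn and Apln) can be read beside 1 that was lower (Cldn5). The RefSeq promoter table (rat build GRCr8) held 16 of the 26 measured genes and had no entry for Sox7 and Sox18. Given are the 250 bases before the transcription start, 5′ to 3′ on the strand of the gene, with capitals where 1 of 5 motifs was found on either strand: CCGGAA (ETS), ACAAT (SOX), TGANTCA (AP-1), ACGTG (hypoxia-inducible factors) or CACCC (KLF and Sp factors).

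Flt1 (chr12:12333180-12333429, forward strand): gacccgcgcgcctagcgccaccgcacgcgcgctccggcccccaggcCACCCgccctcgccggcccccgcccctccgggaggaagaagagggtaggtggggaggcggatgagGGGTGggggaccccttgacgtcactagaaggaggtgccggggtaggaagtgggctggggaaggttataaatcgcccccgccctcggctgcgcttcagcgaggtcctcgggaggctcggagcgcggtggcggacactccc

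Emcn (chr2:228564289-228564538, forward strand): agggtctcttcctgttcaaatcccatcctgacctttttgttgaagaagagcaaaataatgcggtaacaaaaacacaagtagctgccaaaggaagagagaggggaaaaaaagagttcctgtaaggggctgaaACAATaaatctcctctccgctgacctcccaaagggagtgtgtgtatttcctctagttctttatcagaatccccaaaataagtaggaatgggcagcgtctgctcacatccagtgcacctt

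Pdpn (chr5:160918960-160919209, reverse strand): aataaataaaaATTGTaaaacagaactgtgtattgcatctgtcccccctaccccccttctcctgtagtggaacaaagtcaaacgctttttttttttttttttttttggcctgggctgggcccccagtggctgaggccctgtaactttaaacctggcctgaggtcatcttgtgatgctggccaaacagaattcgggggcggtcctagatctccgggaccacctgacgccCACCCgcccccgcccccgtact

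Apln (chrX:132091247-132091496, reverse strand): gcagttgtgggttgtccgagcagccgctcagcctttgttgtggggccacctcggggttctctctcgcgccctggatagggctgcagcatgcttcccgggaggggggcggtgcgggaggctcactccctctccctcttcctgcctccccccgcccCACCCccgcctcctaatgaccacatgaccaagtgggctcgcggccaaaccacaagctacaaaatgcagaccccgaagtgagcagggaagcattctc

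Cldn5 (chr11:95718599-95718848, reverse strand): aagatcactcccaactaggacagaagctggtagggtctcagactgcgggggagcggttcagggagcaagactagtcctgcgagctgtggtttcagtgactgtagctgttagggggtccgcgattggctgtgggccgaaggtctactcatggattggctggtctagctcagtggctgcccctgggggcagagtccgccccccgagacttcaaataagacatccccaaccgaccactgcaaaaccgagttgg

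CACCC was found in the promoters of Flt1 (2 matches), Pdpn (1) and Apln (1), and ACAAT in those of Emcn (1) and Pdpn (1), while the window of Cldn5 held none of the 5 motifs. Over the 16 promoters, CACCC was present in 11 (68.8%), compared with 49.2% of all 33469 promoters, and ACAAT in 6 (37.5%), compared with 30.0%. Genes with CACCC differed in both directions: Eng (-0.32), Flt4 (-0.25), Plvap (-0.23), Stab2 (-0.18) and Tie1 (-0.30) were lower on the RS array. Apln, Egfl7, Flt1, Kdr, Nos3 and Pdpn were higher. Of the genes with ACAAT, Robo4 (-0.070) was lower, and Emcn, Erg, Lyve1, Nos3 and Pdpn were higher. The lower values were each within 1.96 times the spot error. A link between motif and direction was not tested. CCGGAA was present in the promoter of Kdr only (1 of 16, compared with 12.6% of all promoters), ACGTG in that of Robo4 only (1 of 16, compared with 16.6%), and TGANTCA in none (compared with 6.34%). These matches describe the letters of the windows and do not show binding.

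The signaling partners of these genes were given by a list of 21 names, of which 19 were measured. Of these, 14 (73.7%) were above 0, compared with 52.1% of all screened genes. By 2-fold or more, 3 (15.8%) were higher and 1 (5.26%) was lower, compared with 3.46% and 4.28% of all genes. Ednrb, which encodes the endothelin B receptor, went from an intensity of 54.9 in C to 184 in RS (log2 difference 1.84 ± 0.071), and its second probe from 12.9 to 43.2 (1.84). Adm, which encodes the vasodilator adrenomedullin, went from 423 to 1123 (1.51 ± 0.065), and Ramp3, which like Ramp2 makes an adrenomedullin receptor, from 46.7 to 90.5 (1.05 ± 0.22). The growth factor genes Vegfa (0.62 ± 0.14) and Vegfc (0.66 ± 0.21) were higher by 1.53-fold and 1.58-fold. Other genes of these systems were not past 2-fold. Calcrl, the receptor that Ramp2 and Ramp3 work with, was at 0.33 ± 0.20, Ece1, which encodes an endothelin-converting enzyme, was at -0.39 ± 0.23, and Ednra, the endothelin A receptor gene, was above background on neither array. Ptprb, which encodes the phosphatase VE-PTP that acts on Tek and VE-cadherin, was the lower gene, from 3808 to 412 (-3.11 ± 0.20). This probe holds a run of 7 alternating A and G bases, and the log2 difference of the other probe for Ptprb was 0.36, in the opposite direction.

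Of 12 genes that endothelium regulates on activation or by blood flow, 11 were measured. Their median log2 difference was 0.74, beside 0.15 for the 26 endothelial genes. By 2-fold or more, 5 (45.5%) were higher and 1 (9.09%) was lower, compared with 3.46% and 4.28% of all screened genes. Plat, which encodes tissue plasminogen activator, went from an intensity of 192 in C to 1358 in RS (2.92 ± 0.20). Thbd, which encodes thrombomodulin, went from 257 to 1065 (2.15 ± 0.20), and Procr, which encodes the endothelial protein C receptor, from 37.4 to 153 (2.13 ± 0.22). Thbd and Procr encode receptors of the protein C anticoagulant system. The tissue factor pathway inhibitor gene Tfpi, also on this list, had intensities of 127 and 129 (0.12 ± 0.21). The flow-regulated factors Klf4 (from 173 to 667, 2.05 ± 0.14) and Klf2 (from 569 to 256, -1.05 ± 0.20) lay on opposite sides. Plat, Thbd, Procr, Klf4 and Klf2 are not restricted to endothelium.

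The high endothelial venule list had 6 of 8 genes measured, with a median log2 difference of 0.34 and none past 2-fold. Above 0 were 4 (66.7%), compared with 52.1% of all screened genes. By 1.5-fold or more, 1 (16.7%) was higher and 2 (33.3%) were lower, compared with 7.97% and 8.46% of all screened genes. Enpp2, which encodes the lysophosphatidic acid-producing enzyme autotaxin, went from 769 to 1116 (0.64 ± 0.14, or 1.55-fold higher). Glycam1, which encodes a mucin-like ligand of L-selectin, had intensities of 16635 and 18205 (0.23 ± 0.20). Fut7, a fucosyltransferase gene for selectin ligands that leukocytes share, went from 148 to 69.8 (-0.99 ± 0.21), and Gcnt1, which encodes a glycosyltransferase of the same pathway, from 399 to 214 (-0.80 ± 0.20) with a probe of 6 alternating A and G bases. Madcam1, the mucosal vascular addressin, had intensities of 15.7 and 21.8, and the sulfotransferase gene Chst4 was not above background. Of the further lymphatic endothelial genes, 7 were measured with a median of -0.055. By 2-fold or more, 2 (28.6%) were higher, compared with 3.46% of all screened genes. These were Ackr2, which encodes a chemokine-scavenging receptor (from 307 to 744, 1.37 ± 0.20), and Foxc2, which encodes a transcription factor of lymphatic valves (from 12.7 to 28.0, 1.24 ± 0.32). The chemokine gene Ccl21 had intensities of 9330 and 7655 (-0.19 ± 0.20).

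Markers of other cell types differed between the arrays as well, and in bulk tissue more cells of a type and more RNA per cell cannot be told apart. The summed normalized level of the 26 measured endothelial genes was 199 in C and 229 in RS (in units of the 75th percentile of the array). Prox1 alone made up 122 and 149 of these sums, which were 76.3 and 80.1 without it. This part rests on the brighter Prox1 probe (intensities of 23122 and 26283). The second probe read only 244 and 346, so the level of Prox1 depends on the probe, and the reason was not tested. Erythrocyte genes were higher by 2-fold or more in 7 of 7 measured cases (among them Hba1, Hba2, Hbb, Hbb-b1, Alas2 and Ahsp), with a median log2 difference of 2.60 and summed levels of 54.2 and 326. Fat cell genes were past 2-fold in 7 of 9 (Adipoq, Lep, Cfd, Plin4, Cidec, Retn and Slc2a4), with a median of 2.58 and summed levels of 34.9 and 97.7. Of all screened genes, 3.46% were higher by 2-fold or more. The medians of blood and fat markers were thus both past 2-fold, and that of the endothelial genes was not. Of fibroblastic reticular cell genes, which share Pdpn, 8 were measured with a median of 0.43. The collagen genes Col1a1 (1.24), Col1a2 (1.22) and Col3a1 (1.33) were past 2-fold, while Ccl19 (-0.56), Pdgfra (-0.39) and Il7 (-0.23) were below 0. Pericyte and smooth muscle genes had a median of 0.45 over 11, with Cspg4 (1.28) past 2-fold and Myh11 at 0.99. Macrophage genes, some of whose cells share Lyve1, had a median of 0.0071 over 10, with none past 2-fold and Vsig4, at -0.91, and Mrc1, at 0.45, farthest from 0 in either direction. The part of blood, fat and stromal tissue in the endothelial differences was not tested.

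**Figure D4:**
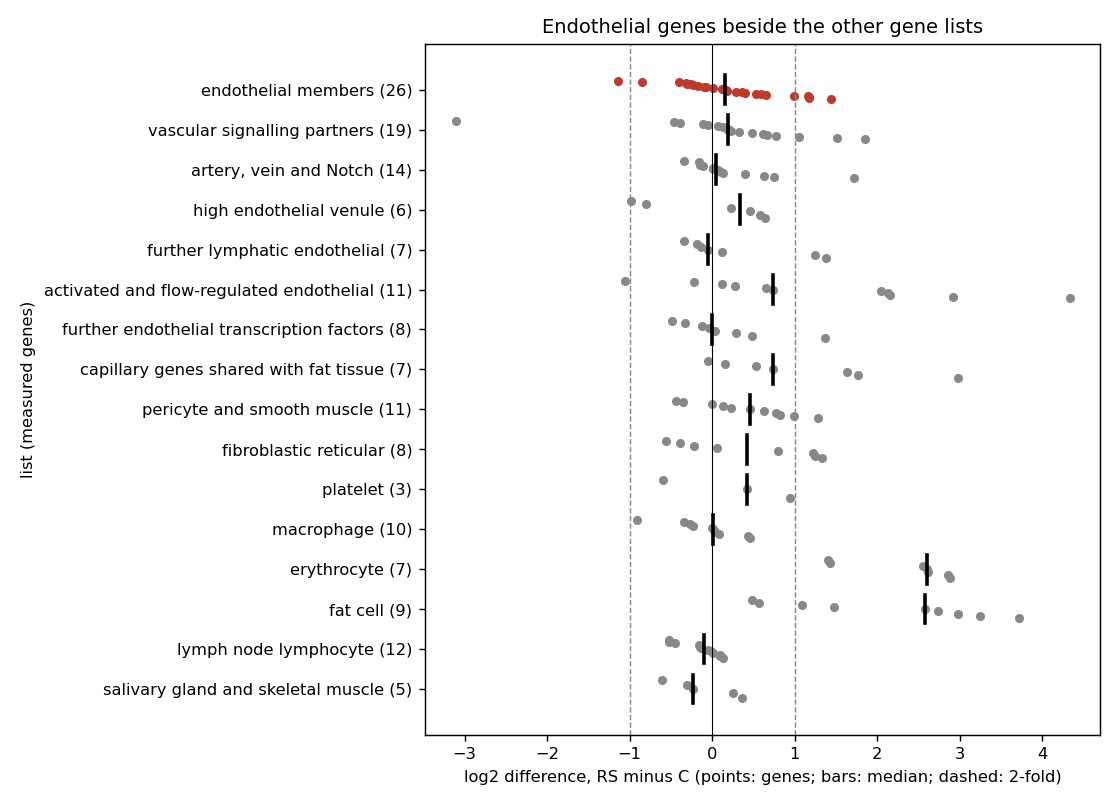
Log2 difference (RS minus C) of the measured genes of the endothelial list (red, 26 genes) and of 15 other lists (grey), with the median of each as a black bar and dashed lines at 2-fold. The endothelial median of 0.15 lies near 0, whereas the medians of the erythrocyte and fat cell lists, 2.60 and 2.58, lie past 2-fold.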

How the data were processed

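Cervical lymph node RNA, labeled with Cy3, was hybridized to Agilent rat gene expression arrays, 1 array per group. The authors extracted the spots with Agilent Feature Extraction 11.5.1.1 (named in the submitters' processing notes), and the deposited intensity values were detrended and background-subtracted within each array but not normalized between arrays. The authors also deposited a table of log2 values; for 45598 probes, 100% of them differed by at most 0.1 from the normalized log2 values used here, so the table has the same scale and centring, and it served as an alternative.

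Control probes and spots marked as outliers were left out, the remaining spots of each probe were averaged on the log2 scale, and each array was shifted by its 75th percentile, as in the study's methods. Well above background means that the software marked over 50% of the spots of a probe so, which held for 54.7% of probes on the C array and 54.9% on the RS array; no probe was saturated. A gene dim on 1 array has only a lower bound, taken against its own signal there or the faintest signal that cleared the background on that array, whichever was higher. The spot error combines the software's errors of both arrays. For a lower bound it is therefore the error of the plain difference and not of the bound. With 1 array per group, the number of arrays sets the precision. RefSeq accessions of 28 of the 31 endothelial genes found matched the same symbol in the GRCr8 gene table.

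The endothelial genes and the other 15 lists were chosen with earlier results of these data known. Named are every endothelial gene found, every gene of the other lists measured on both arrays and past 2-fold, and the 2 genes of each list that differed most, apart from a few genes not reported here; further genes of these lists were chosen after their values were seen. A threshold of 2-fold follows the study's methods, and 11 alternatives were run. The steps were tested on simulated data. Calculations used R 4.3.3 (limma 3.58.1) and Python 3.11.15 (pandas 2.3.3, numpy 2.4.6 and matplotlib 3.10.9). The study's RT-qPCR and histology were not analysed here.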

Additional observations from a re-analysis of the deposited data

How the results depend on the processing

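No paired analysis was possible because only 1 array represented either group, and no replicate could be left out. Across 11 alternatives (other scalings, normexp, the deposited table, the mean over probes, outlier spots kept, plain differences in place of the lower bound, other filters on dim genes, and probes with alternating A and G bases left out), the median of the endothelial genes ran from 0.051 (no normalization) to 0.16 (no filter). With normexp, 3 genes were 1.5-fold or more higher, 1 was 2-fold or more higher and 0 were 2-fold or more lower, since its offset reduces differences of dim probes by construction. Of 285 values of single genes under the alternatives, 273 moved by less than the spot error, 12 moved by more, and 0 genes past 1.5-fold changed direction. Many of the 273 could not have moved. Leaving out alternating probes changed no endothelial gene, since none used such a probe. The other filters and the plain differences could change Flt1 only, and the deposited table has the same scale. The 12 came from normexp, the mean over probes and no normalization. Pecam1 and Erg, near 0, were below it under some alternatives (Erg -0.17 with the mean over probes). With the mean over probes, Apln (1.24) replaced Pdpn (0.85) among the genes past 2-fold. Without a filter, Aplnr and Esm1, above background on neither array, were also past 2-fold. Leaving out the scaling shifted all genes by a median of -0.098. Of all genes past 2-fold, 59.0% were higher with alternating probes left out, and 44.7% with outlier spots kept, where the counts were those reported. The counts of all genes past 2-fold were 234 higher and 378 lower with normexp, 493 and 601 with genes above background on both arrays only, and 2031 and 2148 without a filter.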

Other observations

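Genes of arteries, veins and Notch signaling, which act in endothelial sprouting and vessel identity, were measured for 14 of 16 names, with a median log2 difference of 0.040. Nrarp, a feedback target of Notch, was past 2-fold, from an intensity of 224 on the C array to 685 on the RS array (1.71 ± 0.20), and Jag1, which encodes a Notch ligand, went from 150 to 235 (0.75 ± 0.21). The arterial connexin gene Gja4 went from 172 to 247 (0.62 ± 0.20). The Notch ligand gene Dll4 was at -0.35, and the venous factor Nr2f2 at -0.14.

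Of 8 further endothelial transcription factors, 8 were measured, with a median of -0.0014. Bcl6b, a zinc finger factor gene, went from 56.5 to 135 (1.36 ± 0.21), and Hhex, a homeobox gene that blood cells share, was at -0.48. Genes that capillary endothelium shares with fat cells had a median of 0.74 over 7 measured genes, and the aquaporin gene Aqp7 (2.98) and the fatty acid binding protein gene Fabp4 (1.63) were past 2-fold. Tmem100, a gene of capillary and arterial endothelium, read 8.37 in C, not well above background, and 30.0 in RS. It was thus at least 3.39-fold higher there (1.76, with a spot error of 0.42 for the plain difference). Cd36 was at -0.054, and the capillary lipase anchor gene Gpihbp1 was above background on neither array. Of salivary gland and skeletal muscle genes, 5 of 9 were measured, none past 2-fold. Smgc, a salivary gland gene, was above background on the C array only, with intensities of 13.9 and 2.09. Its bound was 1.52-fold lower on the RS array (-0.61), which is smaller than the spot error of the plain difference, 1.48. Among genes measured on both arrays, Tnnt3 (0.37) and Bhlha15 (-0.30) were farthest from 0.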
